A study of Oryza sativa with 20 samples.

Results

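The lamina joint at stage S3 and the leaf blade at stage S2 of rice (Oryza sativa) were compared by their small RNA counts. They were chosen because, among the 25 combinations of a lamina joint stage with a blade stage, they had the smallest difference in overall profile, so that differences between the tissues could be looked at apart from a difference in developmental progress. The members are 4 of the 20 libraries of the study, 2 of LJ S3 and 2 of Blade S2. The study sampled the lamina joint (LJ) and the blade of seedlings' first complete leaf at 5 stages, S1 to S5, with 2 libraries for each of the 10 groups. All seedlings were grown in water, with no treatment or genotype contrast named in the labels. Tissue was cut on days 4, 5, 6, 7 and 9 after germination, counting the soaking of the seed as the start, and the labels do not pair days with stages. LJ pieces were under 1 mm long and blade pieces under 10 mm. Nothing says that replicates came from separate plants or cultures, so a p-value reflects the spread of the libraries alone, which may be technical.

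MicroRNAs are short RNAs that plant Argonaute proteins use to find matching transcripts, which are then cut or kept from translation. In leaves, conserved miRNA families are known to act on regulators of cell division, leaf polarity, auxin response and phase change. The lamina joint is the hinge between sheath and blade, and unequal growth of its sides bends the blade outward, a process known for its response to brassinosteroids. The files listed 685 numbered tags, and neither miRNA names nor sequences were paired with the numbers. Tags are therefore named by number, no role is given to any of them, and the labelled tissues could not be checked against markers. In bulk tissue, fewer cells of a type and less RNA per cell cannot be told apart.

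Of the 685 listed tags, 407 had a count in at least 1 of the 4 libraries and 304 had a count in all 4. The totals were 417594 and 691284 counts in LJ S3, and 394429 and 194799 in Blade S2. The second Blade S2 library was the shallowest of the 20, whose totals ran from 194799 to 1169330. A single count in it was worth 3.78 CPM, against 1.35 CPM in the second LJ S3 library. CPM here means counts scaled to library size with edgeR's TMM factors. A filter on low counts over all 20 libraries left 299 tags, which held at least 99.9% of the counts of each library. A further 112 tags had counts in the 4 libraries but were not tested, and the most abundant of them had 28 counts in all. Presence and absence hardly separated the groups. The 27 tags seen in LJ S3 and not in Blade S2 had at most 6 counts, and the 16 seen only in Blade S2 had at most 4.

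LJ S3 was the lamina joint stage nearest to Blade S2, and Blade S2 was the blade stage nearest to LJ S3. The Euclidean distance between their mean log2 CPM profiles over the 299 tags was 13.3, the lowest of the 25 combinations of tissues. Next came LJ S3 with Blade S1 at 15.4, LJ S4 with Blade S4 at 15.6 and LJ S3 with Blade S3 at 15.9. The most distant were LJ S1 and Blade S5, at 43.05. These are the values the pair was picked on, so they are a description and carry no test. Within its own tissue LJ S3 lay at 16.5 from LJ S2 and at 24.9 from LJ S4, so its mean profile was nearer to Blade S1, Blade S2 and Blade S3 than to either neighbour in the lamina joint. Blade S2 lay at 13.5 from Blade S1 and 13.1 from Blade S3.

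**Figure D1:**
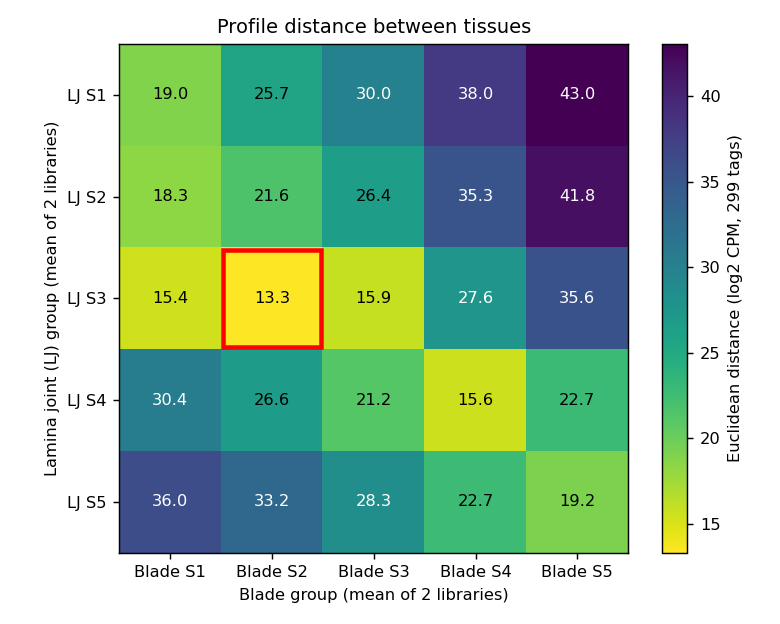
Distance between the mean profiles of each lamina joint group (rows) and each blade group (columns), as Euclidean distance of log2 CPM over 299 tags, with 2 libraries in each mean. The outlined cell, LJ S3 with Blade S2, is the lowest at 13.3, while LJ S4 and LJ S5 are lowest with the blade of their own stage, at 15.6 and 19.2.

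Single libraries gave a less sharp picture. The 4 distances between an LJ S3 and a Blade S2 library ran from 15.8 to 18.0. The replicates of LJ S3 lay 12.98 apart and those of Blade S2 15.5 apart, so the lowest of these 4 distances, 15.8, was close to the distance between Blade S2 replicates. Without the first Blade S2 library the pair was no longer the closest: its distance was 16.5 and it ranked 4th. In the other 19 refits that each left out a library it ranked first, as it did by Spearman correlation, with total-count scaling, with a prior count of 0.5 and among tags over 100 CPM.

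A constant lag of 1 stage was not seen along the series. LJ S2 was nearest to Blade S1, at 18.3, but LJ S4 and LJ S5 were each nearest to the blade of their own stage, at 15.6 and 19.2. LJ S1 was nearest to Blade S1, at 19.0. It cannot bear on a lag, since no blade stage before S1 was sampled. Leaving out LJ S3 and Blade S2, the 3 combinations with the lamina joint 1 stage later had distances from 18.3 to 22.7, and the 3 at equal stages from 15.6 to 19.2. Single replicates lay 28.1 apart in LJ S1 and 21.1 apart in LJ S5, more than these groups' distances to the blade of their own stage. The measures are unlike, since the distances between groups use means of 2 libraries, which evens out part of the spread. In the remaining groups replicates lay from 12.96 (Blade S5) to 18.5 (Blade S1) apart. Whether the ranges differ beyond this spread was not tested. Seen from the blade, LJ S3 was the nearest lamina joint group to Blade S1, at 15.4, and to Blade S3, at 15.9, as well as to Blade S2. LJ S3 and Blade S2 were thus the only combination with the lamina joint 1 stage later in which each group was the nearest of the other tissue.

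Most tags had similar levels in LJ S3 and Blade S2. A ratio of group means was formed after adding 2 CPM to each, and 252 of the 299 tags (84.3%) lay within 2-fold. The median size of the difference was 0.35 on the log2 scale, and its signed median was 0. A tag was called clear when both LJ S3 libraries were above, or both below, both Blade S2 libraries and the ratio was at least 2-fold. Of the tested tags 43 were clear (14.4%), 23 higher in LJ S3 (7.69%) and 20 lower (6.69%). With upper quartile factors the split was 28 and 16, and with TMM computed without the most abundant tag 28 and 15. Without the second LJ S3 library 69 tags were clear, and without the first Blade S2 library 83, since fewer values overlap less often. For 3 clear tags the counting interval of the ratio included 1: tag_134 and tag_410, higher, and tag_172, lower, picked out for this after their values were seen. Without them 21 tags were clearly higher and 19 clearly lower. The groups did not overlap for 115 tags (38.5%), 61 higher (20.4%) and 54 lower (18.1%) in LJ S3. With 2 libraries in each group, a large part of the tags would lie apart by order alone, without any difference between the groups. Clear tags just inside the limit had log2 ratios of 1.03 and -1.01, and non-overlapping tags just outside it 0.99 and -0.88. By edgeR's quasi-likelihood test, 4 tags (1.34%) passed an adjusted p of 0.05, all of them clear: tag_001 as higher and tag_010, tag_033 and tag_148 as lower in LJ S3. The pair was chosen on this contrast, so nothing is read from these counts and no p is given for a tag in it.

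**Figure D2:**
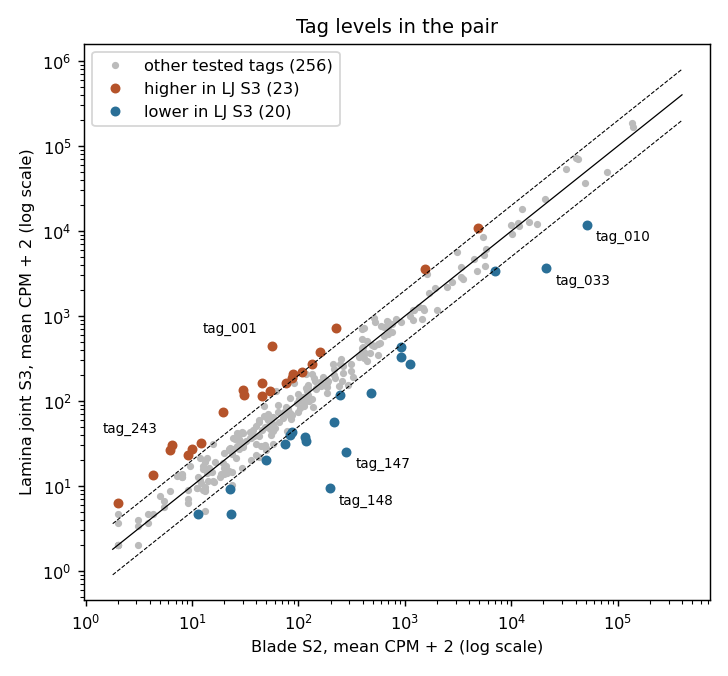
Mean level of each of the 299 tested tags in Blade S2 (horizontal) and LJ S3 (vertical), as CPM plus 2 on log axes, with the line of equality and dashed lines at 2-fold. The 23 clear tags above the upper dashed line and the 20 below the lower one reach up to tag_010, with a mean of 31485 CPM over the 4 libraries and 7 more abundant tags that are not clear, and the 252 tags within 2-fold lie between the lines.

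Among the 137 tested tags averaging 100 CPM or more over LJ S3 and Blade S2, 22 (16.1%) were clear, 11 in each direction. Among the 38 under 10 CPM, 3 (7.89%) were clear. Of the 10 most abundant tags of the study 1 was clear, and the log2 ratios of the 10 lay between -2.10 and 0.83. That one was tag_010, with 12004.5 and 11801.6 CPM in LJ S3 and 72681.5 and 29451.7 CPM in Blade S2. Both LJ S3 libraries were below both blade libraries, although the blade libraries differed from each other by more than 2-fold. Its log2 ratio was -2.10, or -1.30 without the first Blade S2 library.

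The tag with the largest ratio in favour of the lamina joint was tag_001. It had 346 and 543 CPM in LJ S3 against 66.0 and 41.6 CPM in Blade S2, a log2 ratio of 3.001, from 575 and 40 counts. Both LJ S3 values lay far above both blade values. Next was tag_243, with 27.9 and 28.5 CPM in LJ S3 and 9.10 and 0 CPM in Blade S2, a log2 ratio of 2.20. Its LJ S3 libraries were alike, while the blade had 4 counts, all in its first library, without which the log2 ratio was 3.95. Per scaled library size the ratio of summed counts was 4.96, with a counting interval from 1.78 to 19.2 (exact 95% binomial, counting error only).

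In the other direction tag_148 stood first. It had 3.98 and 10.8 CPM in LJ S3 and 166 and 223 CPM in Blade S2, a log2 ratio of -4.39. Only 10 counts were left in LJ S3 against 132 in Blade S2, so the ratio of 0.0430 had a counting interval from 0.0201 to 0.0816. Next came tag_147, with 27.9 and 19.0 CPM in LJ S3 and 152 and 405 CPM in Blade S2, a log2 ratio of -3.46, or -2.62 without the second Blade S2 library. The groups were apart for both tags, and the spread of tag_147 lay mainly in the blade.

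Whether such differences also occurred in libraries that had no part in the pair was tested at the same lag in stage number. The stage scores of these other combinations, defined below, were not matched, so tissue and developmental stage cannot be told apart in them. The average of LJ S2 minus Blade S1, LJ S4 minus Blade S3 and LJ S5 minus Blade S4 was taken from a fit to all 20 libraries. These 12 libraries include none of LJ S3 or Blade S2. By edgeR's test 43 of the 299 tags (14.4%) passed, of which 16 (5.35%) had the lamina joint above the blade and 27 (9.03%) below it. By DESeq2 the split was 22 and 22. The count was 28 without the second LJ S4 library and 24 without the first LJ S5 library. In a fit that left out the 4 libraries of LJ S3 and Blade S2 altogether it was 37, with 14 higher and 23 lower.

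Of the 23 tags clearly higher in LJ S3 than in Blade S2, 10 passed this test as higher in the lamina joint, and 0 as lower. Of the 20 clearly lower tags, 7 passed as lower and 0 as higher. These 17 tags were 39.5% of the 43 clear tags and 39.5% of the 43 tags called in the other lag pairs, where 14.4% of all tested tags were called. Without the tags whose counting interval included 1, 9 higher and 7 lower tags were left, 16 in all, since tag_134 with 6 counts against 0 was one of the 10. The counts of tag_134 lay mainly in LJ S4 and LJ S5, at 185 and 585, with 110 in Blade S5. It thus passed the filter on low counts through groups outside the pair. So did tag_132, another of the 10 and kept among the 16. It had 13.9 and 46.1 CPM in LJ S3 and 9.10 and 11.3 CPM in Blade S2. Its fitted log2 difference was 5.16 for LJ S4 minus Blade S3 and 3.31 for LJ S5 minus Blade S4. For the other clear tags this was not counted. Without the first LJ S4 library, either LJ S5 library or the second Blade S1 library the 17 became 11, and in the fit without LJ S3 and Blade S2 they were 15. The median fitted difference in the other lag pairs was 1.06 on the log2 scale for the clearly higher tags and -0.86 for the clearly lower ones, against -0.08 over all tested tags. With groups at 0 counts set to 3 counts over the group the median over all tags was -0.07. No clear tag had such a group, so the other medians could not move. Across the 299 tags, which are not independent replicates and share the fit's scaling and each tag's abundance, the log2 ratio of the pair and the fitted difference correlated at 0.474 (Pearson) and 0.392 (Spearman).

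**Figure D3:**
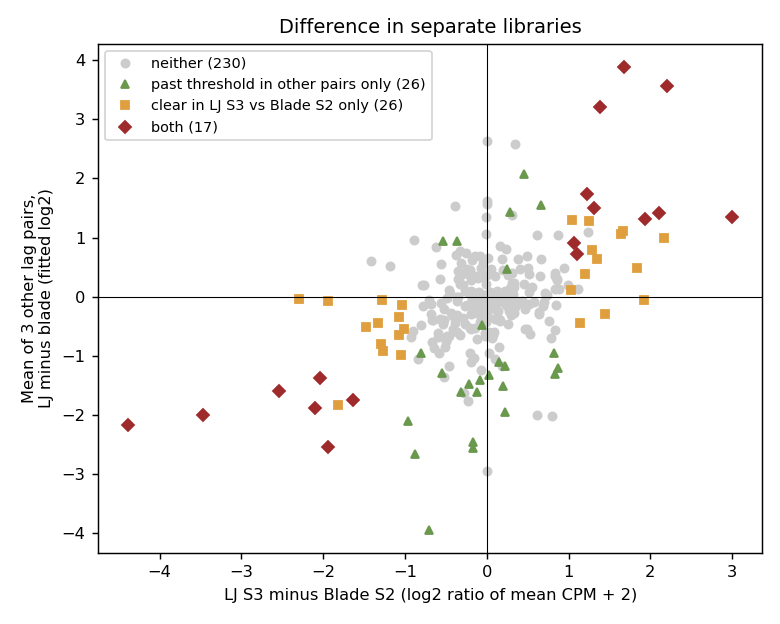
Log2 ratio of LJ S3 to Blade S2 (horizontal) against the fitted log2 difference averaged over the 3 other combinations with the lamina joint 1 stage later (vertical), 1 point for each of 299 tags. The 17 diamonds, clear in the pair and past edgeR's threshold in the other libraries, lie in the lower left and upper right quadrants, 7 and 10 of them.

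Because LJ S4 and LJ S5 were nearest to the blade of their own stage, the tissues were also tested at equal stages, again without the 4 libraries. The average difference over S1, S4 and S5 passed edgeR's threshold for 37 tags (12.4%), 24 higher in the lamina joint (8.03%) and 13 lower (4.35%). TMM computed without the most abundant tag gave 24 and 8. The count was 23 without the first LJ S5 or the first Blade S5 library, 24 without the second Blade S1 library, and 30 in the fit without LJ S3 and Blade S2. Of the clearly higher tags of the pair, 10 passed here as higher and 1 as lower. Of the clearly lower tags, 3 passed as lower and 1 as higher. The 13 tags with the same direction (12 without tag_134) were 30.2% of the clear tags and 35.1% of the 37. This average shares the libraries of LJ S4, LJ S5, Blade S1 and Blade S4 with the other lag pairs, so the tests are not separate evidence. Both tests called 17 tags in the same direction (5.69% of the tested tags), and 10 of them were clear in the pair, 7 higher (6 without tag_134) and 3 lower in LJ S3. Neither test called 22 of the 43 clear tags.

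The most abundant of the 7 tags higher in the lamina joint in all 3 comparisons were tag_001 and tag_009. For tag_001 the lamina joint exceeded the blade by 1.35 ± 0.33 in the other lag pairs (log2, SE; edgeR adjusted p = 0.0138) and by 2.17 ± 0.34 at equal stages (edgeR adjusted p = 0.00116). Without the second LJ S5 library the former was 1.14 (edgeR adjusted p = 0.0595). In the lamina joint the S1 mean was 3703 ± 2020 CPM (SD, n = 2), followed by 445 ± 139 CPM at S3 and 224 ± 103 CPM at S5, a fall (edgeR adjusted p for S5 against S1 = 0.000167). The blade means lay between 53.8 ± 17.2 CPM at S2, their lowest, and 162 ± 7.63 CPM at S1 (SD, n = 2). The ratio in the pair thus set a middle value of the lamina joint course against the lowest blade stage.

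The course of tag_009 was alike in the lamina joint, with 3516 ± 1612 CPM (SD, n = 2) at S1 and 204 ± 85.7 CPM at S3. In the pair it had 265 and 144 CPM in LJ S3 against 112 and 60.5 CPM in Blade S2, a log2 ratio of 1.23. The groups did not overlap, but the lower LJ S3 library was near the higher blade library. It was higher in the lamina joint by 1.74 ± 0.37 in the other lag pairs (log2, SE; edgeR adjusted p = 0.00523) and by 2.14 ± 0.37 at equal stages (edgeR adjusted p = 0.00162).

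The most abundant of the 3 tags lower in all 3 comparisons were tag_010 and tag_227. In the lamina joint tag_010 had its lowest mean at S2, 3910 ± 140 CPM (SD, n = 2), and reached 42315 ± 7566 CPM at S5. Its blade means were at least 51067 ± 30568 CPM (SD, n = 2) at every stage, the value of S2. The fitted difference was -1.89 ± 0.23 in the other lag pairs (log2, SE; edgeR adjusted p = 0.000156) and -1.64 ± 0.23 at equal stages (edgeR adjusted p = 0.000478). Tags whose difference varied among the other lag pairs numbered 21 (7.02%), and tag_010 was one, with -4.12 for LJ S2 minus Blade S1, -0.80 for LJ S4 minus Blade S3 and -0.75 for LJ S5 minus Blade S4 (edgeR F test, adjusted p = 0.0037).

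For tag_227 the values were 45.8 and 62.3 CPM in LJ S3 and 241 and 185 CPM in Blade S2, a log2 ratio of -1.94. Its fitted difference was -2.54 ± 0.29 in the other lag pairs (log2, SE; edgeR adjusted p = 0.000121) and -3.05 ± 0.30 at equal stages (edgeR adjusted p = 2.19e-05). The lamina joint was below the blade in every library of the same stage and in every library of the lag pairs. The gap also varied among the other lag pairs (edgeR F test, adjusted p = 0.0144), from -4.64 for LJ S2 minus Blade S1 to -0.90 for LJ S4 minus Blade S3.

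The largest ratios in the pair were met again in the other libraries to different degrees. For tag_148 the other lag pairs gave -2.17 ± 0.38 (log2, SE; edgeR adjusted p = 0.00149) and the equal stages -1.99 ± 0.40 (edgeR adjusted p = 0.00426). Its lamina joint means stayed between 7.41 ± 4.85 and 18.5 ± 5.89 CPM (SD, n = 2), while its blade mean was highest at S2, 195 ± 40.3 CPM. For tag_147 the other lag pairs gave -2.01 ± 0.57 (log2, SE; edgeR adjusted p = 0.0287) and the equal stages -1.07 ± 0.57 (edgeR adjusted p = 0.233). The former did not pass without either library of LJ S2, LJ S4, LJ S5, Blade S4 or Blade S5, without the second LJ S3 library, or without the second of Blade S1 or Blade S3 (edgeR adjusted p up to 0.101, fitted differences from -2.04 to -1.70). The latter passed without the second LJ S1 library (-3.47, edgeR adjusted p = 0.000447) and without a filter on low counts (-1.17, edgeR adjusted p = 0.0156). The blade mean of tag_147 was also highest at S2, 279 ± 178 CPM (SD, n = 2), and was 36.4 ± 5.56 CPM at S5, next to 44.1 ± 1.66 CPM in LJ S5.

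In the lamina joint tag_243 rose late. It had 6 counts in LJ S2, 35 in LJ S3, 274 in LJ S4 and 291 in LJ S5, with means of 28.2 ± 0.407 CPM (SD, n = 2) at S3 and 723 ± 66.2 CPM at S5. No blade group had more than 13 counts. The other lag pairs gave 3.57 ± 0.52 (log2, SE; edgeR adjusted p = 0.000356), and the equal stages 3.78 ± 1.08 (edgeR adjusted p = 0.0346). The latter did not pass without the second LJ S1 library (2.88, edgeR adjusted p = 1.00), the first of LJ S3 (3.77, 0.0529), the first of LJ S5 (3.75, 0.0624) or the first of Blade S4 (3.76, 0.05). Among the other lag pairs it was -0.46 for LJ S2 minus Blade S1, 4.77 for LJ S4 minus Blade S3 and 6.39 for LJ S5 minus Blade S4 (edgeR F test, adjusted p = 0.0144). LJ S3 was thus the earliest lamina joint stage at which its libraries lay above all blade libraries.

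**Figure D4:**
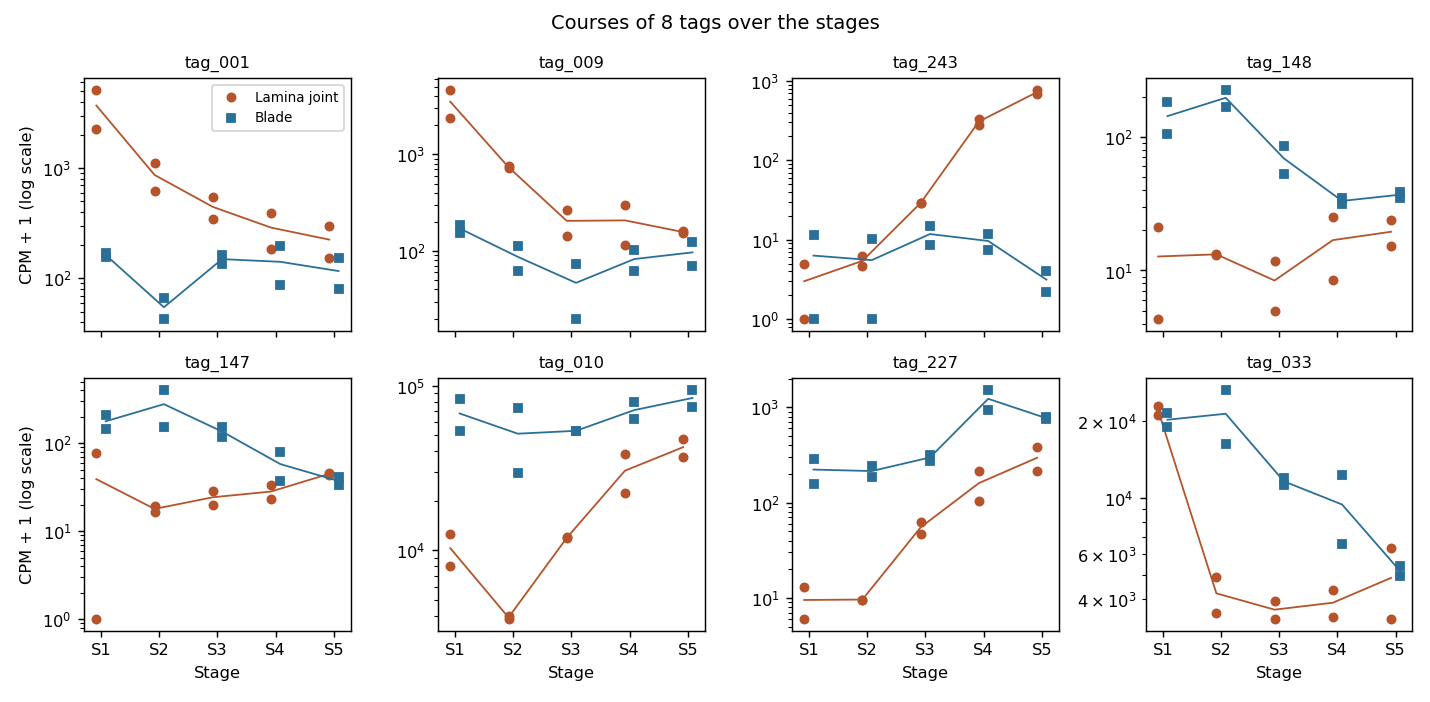
Levels of 8 tags in every library over the 5 stages (horizontal), as CPM plus 1 on a log axis, with circles for the lamina joint, squares for the blade and lines through the group means of 2 libraries. In tag_148 and tag_147 the blade peaks at S2 and the tissues approach each other by S5, in tag_243 the lamina joint leaves the blade from S3 on, and in tag_033 the lamina joint drops between S1 and S2 while the blade falls after S2.

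Outside the tags named so far, the other lag pairs gave the largest fitted values for tag_134, with 3.88 ± 0.54 (log2, SE; edgeR adjusted p = 0.000356). At equal stages it was higher by 3.13 ± 0.54 (edgeR adjusted p = 0.00193), or 2.29 without the second LJ S1 library (edgeR adjusted p = 0.069). In the pair it had 1.99 and 6.77 CPM in LJ S3 and 0 in both Blade S2 libraries, which makes it 1 of the 23 clearly higher tags, but from 6 counts against 0. The counting interval of that ratio began at 0.668, so its place among the clear tags lies within counting error. Its lamina joint mean was 4.38 ± 3.38 CPM (SD, n = 2) at S3 and 1496 ± 298 CPM at S5, next to 76.7 ± 20.4 CPM in Blade S5.

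The tags with the lowest fitted values in the other lag pairs were also near their limit of detection. With 0 counts in LJ S5 and 1 in LJ S4, tag_247 had -3.94 ± 0.65 (log2, SE; edgeR adjusted p = 0.00133), and its size rests on the prior count used. At equal stages, which share LJ S4 and LJ S5, tag_247 had -2.69 ± 0.75 (log2, SE; edgeR adjusted p = 0.0346). In the pair it had 39.8 and 16.3 CPM in LJ S3 and 41.0 and 53.0 CPM in Blade S2, under 2-fold. Likewise tag_221 had 0 counts in LJ S5, and its value of -2.66 ± 0.72 (log2, SE; edgeR adjusted p = 0.0246) did not pass without either library of LJ S4, LJ S5 or Blade S4 (edgeR adjusted p up to 0.0991), nor by DESeq2 (adjusted p = 0.0581). Its CPM in the pair overlapped, at 7.96 and 20.3 in LJ S3 and 36.4 and 18.9 in Blade S2. At equal stages tag_181 was lower by -2.73 ± 0.82 (log2, SE; edgeR adjusted p = 0.0453) with 0 counts in LJ S1, and it passed in 9 of 28 alternatives, failing without each of 16 single libraries (edgeR, limma and DESeq2 adjusted p up to 0.188). It did not differ by 2-fold in the pair, with 6.83 and 7.57 CPM in Blade S2 and 5.97 and 8.13 CPM in LJ S3.

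In 2 clear tags the direction at equal stages was the opposite of that in the pair. In the pair tag_151 had 121 and 112 CPM in LJ S3 against 200 and 284 CPM in Blade S2. At equal stages it was 0.76 ± 0.23 higher in the lamina joint (log2, SE; edgeR adjusted p = 0.0459), and this passed in 6 of 30 alternatives, with single libraries left out only for the second of LJ S2, LJ S3 or Blade S5. Without the second Blade S2 library its log2 ratio in the pair, otherwise -1.04, was -0.77. It fell from S1 to S5 in both tissues, by 2.16 in the lamina joint and by 3.14 in the blade on the log2 scale (edgeR adjusted p = 0.00086 and 4.24e-05). The other tag, tag_122, had 155 and 215 CPM in LJ S3 against 102 and 68.1 CPM in Blade S2. At equal stages it was -0.82 ± 0.22 (log2, SE; edgeR adjusted p = 0.026), which passed in 21 of 30 alternatives and not without the second of LJ S3 or LJ S4, the first of LJ S5 or Blade S1, or either library of Blade S4 or Blade S5. In the other lag pairs it was 0.72 ± 0.22 (edgeR adjusted p = 0.039), which passed in 19 of 30 and not without the first of LJ S2, LJ S3 or LJ S4, the second of Blade S1, Blade S2 or Blade S4, or either library of LJ S5 or Blade S3. Its rise from S1 to S5 was 5.10 in the lamina joint and 5.48 in the blade (edgeR adjusted p = 2e-06 and 8.25e-07).

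The place of LJ S3 and Blade S2 in development was read from tags that changed from S1 to S5 in the same direction in both tissues, a test with none of the 4 libraries in its contrasts. The scores of LJ S3 and Blade S2 come from tags that also entered the distance on which the pair was picked, so a small gap between them was favoured by the choice and is a description. By edgeR 51 tags rose in both tissues (17.1% of the tested tags) and 45 fell in both (15.1%). With total counts as the scaling these were 32 and 86. The mean log2 CPM of the 51 minus that of the 45 gave each library a stage score. It was -0.73 and -0.87 in the LJ S3 libraries and -0.75 and -0.53 in the Blade S2 libraries, so these groups overlapped. The Blade S3 libraries scored 0.55 and 0.71, and the LJ S2 libraries -1.970 and -1.997. Group means were -0.80 ± 0.10 in LJ S3, -0.64 ± 0.15 in Blade S2, 0.63 ± 0.12 in Blade S3 and -1.98 ± 0.02 in LJ S2 (SD, n = 2). LJ S3 was thus 0.16 below Blade S2 and 1.43 below Blade S3. Over 26 alternatives these gaps ran from -0.25 to -0.04 and from -1.51 to -1.28.

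**Figure D5:**
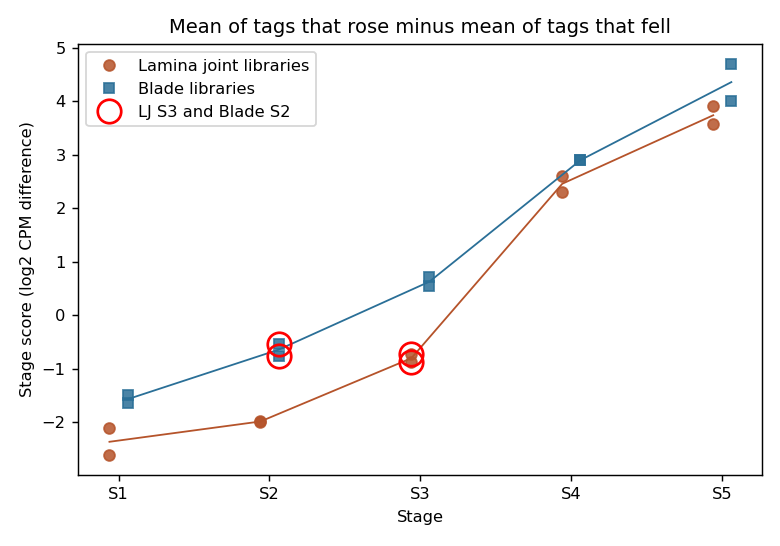
Stage score of each library, the mean log2 CPM of 51 tags that rose from S1 to S5 minus that of 45 tags that fell, over the 5 stages, with lines through the means of 2 libraries. The circled LJ S3 and Blade S2 libraries lie at one height, between -0.87 and -0.53, below Blade S3 and above LJ S2.

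The scores put every lamina joint mean below the blade mean of its stage, with the widest gaps at S2 and S3. At S4 the means were 2.46 ± 0.21 and 2.90 ± 0.000216 (SD, n = 2), and at S5 3.74 ± 0.23 and 4.36 ± 0.49. The other lag pairs were not matched by this score. LJ S2 was at -1.98 and Blade S1 at -1.57. LJ S4, at 2.46, was above Blade S3, at 0.63, and LJ S5, at 3.74, above Blade S4, at 2.90. The largest step of the lamina joint lay between S3 and S4, from -0.80 to 2.46. LJ S3 was therefore sampled just before the largest step of its tissue. Blade scores also climbed most on leaving S3, from 0.63 in Blade S3 to 2.90 in Blade S4. Blade S2 came before a smaller rise, from -0.64 to 0.63 in Blade S3.

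Tag by tag, the stage-dependent tags were nearer to each other in the pair than at equal stages. The comparisons of LJ S3 with Blade S2, LJ S3 with Blade S3 and LJ S2 with Blade S2 share libraries, so their values are given side by side only. Among the 51 tags that rose, the median log2 ratio was -0.13 in the pair, -0.73 at S3 and -0.93 at S2. In the pair 4 of them were clearly higher and 4 clearly lower in the lamina joint, at S3 0 and 19, and at S2 1 and 23. Among the 45 tags that fell, the median was 0.03 in the pair, 0.49 at S3 and 0.34 at S2. Clearly higher and lower tags numbered 3 and 4 in the pair, 14 and 3 at S3, and 15 and 5 at S2. Over all 299 tags the corresponding numbers were 23 and 20 in the pair, 29 and 40 at S3, and 31 and 63 at S2.

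The remaining 203 tags differed less in the pair too. Their median size of difference was 0.33 on the log2 scale in the pair, 0.46 at S3 and 0.61 at S2. For all tags it was 0.35, 0.53 and 0.68. These 203 tags held 28 of the 43 clear tags, 16 higher and 12 lower in LJ S3. That share of the 203 was close to the 14.4% clear over all 299 tags. The pair was picked for its small overall difference, so smaller values in it were fixed by the choice.

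Among the stage-dependent tags, the most abundant ones that rose were higher in LJ S3 by less than 2-fold. The most abundant tag of the study, tag_011, took 23.8% (exact 95% binomial interval 23.7 to 23.9) and 19.1% (19.1 to 19.2) of the counts in LJ S3 and 16.8% (16.6 to 16.9) and 16.8% (16.6 to 16.9) in Blade S2. These intervals cover counting error only. Its log2 ratio of CPM was 0.46, with both LJ S3 libraries above both blade libraries. By S5 it had risen by 1.67 in the lamina joint and by 1.61 in the blade (log2; edgeR adjusted p = 0.00194 and 0.00232). The next, tag_313, had a log2 ratio of 0.70 in the pair, or 1.10 without the first Blade S2 library, and rose by 1.23 and 1.28 (edgeR adjusted p = 0.0083 and 0.00601).

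The most abundant tags that fell differed from each other. For tag_029 the values were 9826 and 12766 CPM in LJ S3 and 9972 and 13508 CPM in Blade S2, a log2 ratio of -0.06, and the groups overlapped. For tag_033 they were 3343 and 3951 CPM in LJ S3 and 26395 and 16205 CPM in Blade S2, a log2 ratio of -2.55. Both tags fell from S1 to S5 in both tissues. The LJ S1 mean of tag_033 was 21954.5 ± 1314 CPM (SD, n = 2) and that of LJ S2 4225 ± 957 CPM, while Blade S2 was still at 21300 ± 7205 CPM and Blade S5 at 5151 ± 325 CPM. The other lag pairs gave -1.60 ± 0.21 (log2, SE; edgeR adjusted p = 0.000267), and the equal stages S1, S4 and S5 gave -0.41 ± 0.21 (edgeR adjusted p = 0.208). For tag_029 the other lag pairs gave -0.48 ± 0.15 (edgeR adjusted p = 0.039). Its difference at equal stages had the opposite sign and did not pass, at 0.33 ± 0.15 (edgeR adjusted p = 0.148).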

How the data were processed

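Small RNA was measured by sequencing in 20 libraries. The authors deposited whole-number counts per numbered tag, not normalised, 1 file per library. The submitters' processing notes name CASAVA and the build IRGSP-1.0. How reads were aligned, annotated and assigned where they match several miRNAs is not given in the sources used here, so tags of near-identical sequence may share or divide reads. Groups and replicate numbers come from the sample titles.

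Counts were fitted with edgeR 4.0.16 in R 4.3.3 (glmQLFit, glmQLFTest), with TMM factors, filterByExpr (minimum count 10, minimum total 15), a mean for each of 10 groups and 10 residual degrees of freedom. Tests were two-sided, with Benjamini-Hochberg adjustment over 299 tags and a threshold of 0.05. The fitted change divided by the root of F gave its standard error. For distances, a prior count of 2 went into log2 CPM. The fits were tested on simulated counts. Alternatives were other scalings and filters, DESeq2 1.42.0, limma 3.58.1 with voom, a replicate block and leaving out each library. Figures used matplotlib 3.10.9.

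The pair, lists and tests were chosen with earlier results of these data known. As files and references gave tags no names, at most 2 tags per direction are named for each comparison: those with the largest ratio or fitted change and a mean of at least 10 CPM, or, for tags shared between comparisons and stage-dependent tags, with the highest CPM in the 4 libraries. For differences among the lag pairs the smallest p decided. Replicates differed beyond sampling noise in every group (chi-square per degree of freedom 79.5 in LJ S3 and 62.7 in Blade S2), so no pair was counted as 1 library.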

Additional observations from a re-analysis of the deposited data

Results flagged for a closer look

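The 3 other combinations with the lamina joint 1 stage later did not give 1 common difference for 21 of the 299 tags (7.02%) by edgeR's F test on 2 contrasts. The count was 7 without the second LJ S2 library, 9 without the first Blade S1 or the second Blade S3 library, 10 without the second Blade S1 library, 11 without the first LJ S5 or the first Blade S4 library and 13 without the first LJ S2, the first LJ S4, the second LJ S5 or the second Blade S4 library. Of the 21 tags, 4 were clear in LJ S3 against Blade S2, where 14.4% of all tested tags were clear. The 2 with the smallest p were looked at, and in both the lamina joint was lower at some lag pairs and higher at another. In tag_225 the fitted differences were -3.89 for LJ S2 minus Blade S1, -2.44 for LJ S4 minus Blade S3 and 3.18 for LJ S5 minus Blade S4 (log2; edgeR adjusted p = 0.000732). In LJ S3 and Blade S2 it had 33.9 and 50.1 against 100 and 53.0 CPM, a log2 ratio of -0.84. In tag_226 they were -4.04, -2.37 and 1.95 (log2; edgeR adjusted p = 0.0037), and its values in the pair overlapped, at 524 and 352 CPM in LJ S3 and 382 and 639 CPM in Blade S2. Both tags passed in all 30 alternatives run. Blade S4, with 8.04 ± 5.25 CPM (SD, n = 2) for tag_225, was far below Blade S3, at 178 ± 27.9 CPM.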

How the results depend on the processing

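Named clear ratios in the pair kept their sign under the alternatives run. So did the named differences past the threshold, in the other lag pairs and at equal stages, that were followed through them. Not followed were the other-lag differences of tag_029 and tag_033 and the equal-stage difference of tag_247. Changes of single tags from S1 to S5 were not followed either. The difference of tag_151 in the other lag pairs, which did not pass, ran from -0.37 to 0.09. Without a filter on low counts, edgeR called 8 tags between LJ S3 and Blade S2 and 68 among the other lag pairs. DESeq2 called 8 and 45. Leaving out 1 library at a time gave 1 to 6 called tags in the pair (1 without the second LJ S3 and 2 without the first Blade S2 library) and 41 to 83 clear ones. It gave 24 to 49 tags for the other lag pairs, 23 to 41 for equal stages and 7 to 31 for differences among the lag pairs. Of the clear tags, 11 to 17 were called in the other lag pairs and 11 to 16 at equal stages. Stage-dependent tags numbered 71 to 102, the stage score gap stayed between -0.25 and -0.04, and the pair's distance ranked 1 to 4. Total counts shifted the median ratio in the pair by -0.10, and TMM without the most abundant tag by 0.11. Replicate numbers are shared by all groups. Deviations of same-numbered libraries correlated over 0.1 in 13 of 45 pairs of groups (0.123 for LJ S3 with Blade S2). The correlations ran from -0.26 to 0.56, with a median of -0.002. The main fit therefore did not pair the libraries, but whether some groups share a pairing was not tested. With the replicate block the counts were 5 for the pair, 42 for the other lag pairs, 32 for equal stages and 20 for differences among the lag pairs, with 17 and 12 clear tags called. The 4 libraries alone gave 5 tags. A lone library is assumed to vary like the other groups. Depth limits tags under a few CPM, most of all in the second Blade S2 library.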
